A study of Mus musculus with 2 samples.

Results

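The type 2 cytokine locus is the stretch of mouse chromosome 11 that runs from Kif3a to Il3, chr11:53566379-54268277 on GRCm38, 702 kb including 1000 bp beyond the outermost genes. Its 10 members, Kif3a, Il4, Il13, Rad50, Il5, Irf1, Slc22a5, P4ha2, Csf2 and Il3, were taken by symbol from the GENCODE vM21 annotation, out of 22028 protein-coding genes. Every H3K4me3 peak that overlapped a member, lay between neighbouring members or fell within 1000 bp of a member's transcript start was used. These were 21 of the 42126 peaks listed for offspring of control mothers (the control list) and 16 of the 51610 peaks listed for offspring of asthmatic mothers (the asthmatic list).

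Il4, Il5 and Il13 encode the cytokines of type 2 immunity and lie close together in mammals, with the DNA repair gene Rad50 between Il13 and Il5. Rad50 holds the locus control region, a group of enhancers that act on the cytokine genes around it. Group 2 innate lymphoid cells (ILC2s) are lymphocytes without antigen receptors that secrete IL-5 and IL-13 in the lung, where these drive eosinophilia and mucus production. H3K4me3 is a histone mark of active and poised transcript starts, and it is widest at starts rich in CpG dinucleotides.

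CATCH-seq of H3K4me3 was done on lung ILC2s. It is a carrier-assisted ChIP-seq of unfixed chromatin that micrococcal nuclease has cut, suited to few cells. Each library was made from about 3000 ILC2s of 8-week-old offspring (7 to 9 weeks in the protocol), and there was 1 library per group, so no value has a replicate and no test between the groups was possible. Asthmatic mothers were 6 to 8 weeks old when given 100 µg ovalbumin (OVA) in alum intraperitoneally on days -21 and -7. They were then mated with untreated males and given 500 µg OVA into the nose at intervals of 2 to 3 days between gestation days 4 and 17. Control mothers received alum in PBS at sensitization and PBS intranasally at the same times, so both groups were exposed to alum, and the offspring themselves were not labelled as treated. The study describes its lung ILC2s as CD45+, Lin-, ST2+ cells, its animals as wild-type C57BL/6J mice, with 1 pregnant dam per group, and the labels do not say how many offspring were pooled for a library. A difference between the lists therefore cannot be told apart from a difference between 2 preparations.

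The sequences below show the kinds of start found among the members. They are the 200 bases before a RefSeq transcript start on GRCm38.p6, read 5′ to 3′ on the gene's strand, with CpG dinucleotides in capitals. Irf1 and Slc22a5 stand for the CpG-rich starts, and Il13, Il5 and Csf2 for the cytokine starts. For Csf2 the RefSeq start, at 54249899, lies upstream of the GENCODE start at 54249667 against which its peaks were placed.
Irf1, chr11:53769814-53770013, plus strand: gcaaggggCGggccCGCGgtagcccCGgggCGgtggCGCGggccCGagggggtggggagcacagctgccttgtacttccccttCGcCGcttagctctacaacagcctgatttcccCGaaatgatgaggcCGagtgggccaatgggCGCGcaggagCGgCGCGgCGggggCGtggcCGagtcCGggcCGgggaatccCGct
Slc22a5, chr11:53891704-53891903, minus strand: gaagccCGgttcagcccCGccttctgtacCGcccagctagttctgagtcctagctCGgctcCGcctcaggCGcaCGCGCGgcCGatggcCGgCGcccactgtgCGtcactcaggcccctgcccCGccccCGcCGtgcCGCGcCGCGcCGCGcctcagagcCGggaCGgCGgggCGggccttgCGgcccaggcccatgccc
Il13, chr11:53634703-53634902, minus strand: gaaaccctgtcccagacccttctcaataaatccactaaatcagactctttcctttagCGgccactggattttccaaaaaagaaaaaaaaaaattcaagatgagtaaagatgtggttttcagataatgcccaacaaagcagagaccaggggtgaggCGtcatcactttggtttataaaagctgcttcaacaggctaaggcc
Il5, chr11:53720594-53720793, plus strand: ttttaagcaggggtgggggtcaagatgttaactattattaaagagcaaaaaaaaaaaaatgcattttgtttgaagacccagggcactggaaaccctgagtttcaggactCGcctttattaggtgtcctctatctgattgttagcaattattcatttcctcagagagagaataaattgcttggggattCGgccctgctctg
Csf2, chr11:54249900-54250099, minus strand: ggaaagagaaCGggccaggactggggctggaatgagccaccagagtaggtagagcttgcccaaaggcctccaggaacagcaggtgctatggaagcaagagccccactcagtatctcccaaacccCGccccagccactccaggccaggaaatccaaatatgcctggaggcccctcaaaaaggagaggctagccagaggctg

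Irf1 holds 23 CpG in these bases and Slc22a5 holds 27, against 2 each in Il13, Il5 and Csf2. In the full windows of the RefSeq table, from 250 bases before to 50 after each start, the 9 of 10 members with an entry fell into the same kinds. Kif3a has 18 CpG, P4ha2 has 26, Slc22a5 has 34 and the windows at both Irf1 starts have 32 and 43. Il4 has 1 and 2 at its 2 starts, Il13 and Csf2 have 3, Il5 has 4 and Il3 has 6, below the median of 7 over 32851 promoter windows.

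By −log10 q the cytokine genes carried the weakest start peaks of all members in offspring of control mothers, where they carried any, and in offspring of asthmatic mothers Csf2 alone among them carried one. A peak within 1000 bp of a transcript start, called a start peak from here on, was present in offspring of control mothers for 8 of the 10 members, that is for all but Il13 and Il3. In offspring of asthmatic mothers it was present for 5, namely Kif3a, Rad50, Irf1, Slc22a5 and Csf2, and all 5 were among the 8. Over all protein-coding genes a start peak was present for 50.9% in the control list and for 41.9% in the asthmatic one. Il4, Il5 and P4ha2 had one in the control list only, a class that held 9.71% of all genes. They were 3 of the 8 members with a start peak in that list, beside 2138 of 11206 genes. No member had one in the asthmatic list only, a class of 0.722% of all genes. Il13 and Il3 had none in either list, like 48.4% of all genes, and the 5 members marked in both lists stand beside 41.2%.

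**Figure D1:**
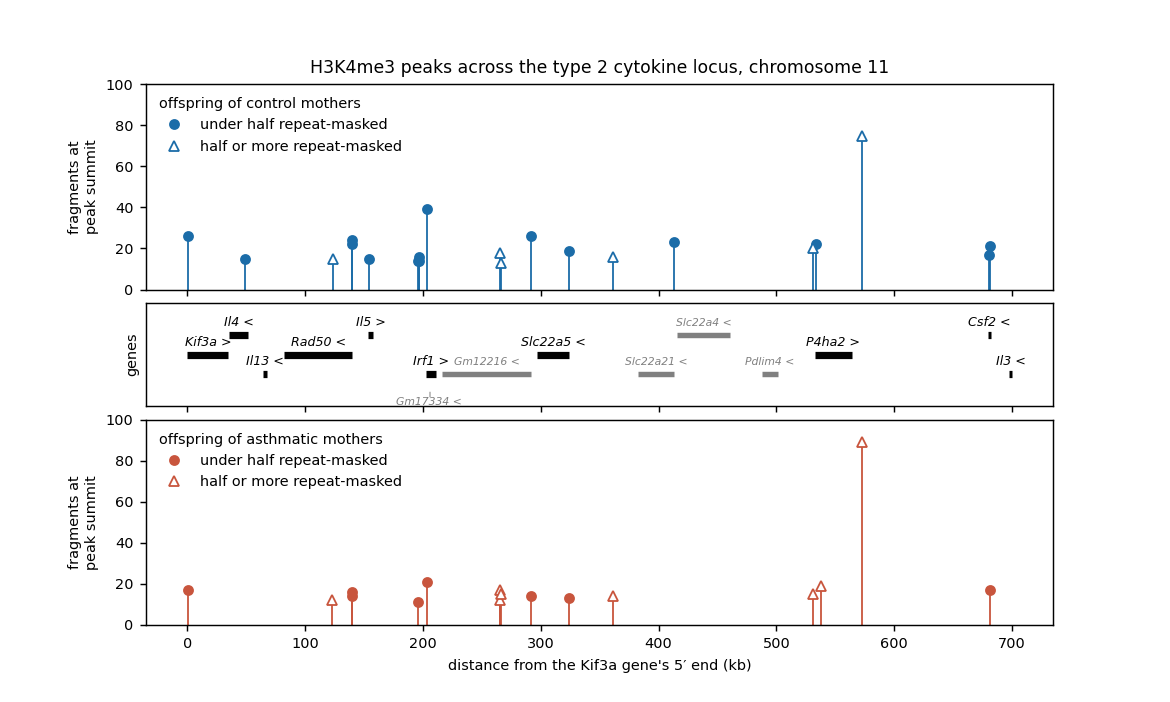
Fragments at the summit of each listed peak (y axis) against its distance from the 5′ end of Kif3a in kb (x axis), for offspring of control mothers (top) and of asthmatic mothers (bottom), with the 10 members (black) and the other protein-coding genes (grey) between them, an arrowhead giving the strand. Filled circles are peaks under 50% repeat-masked and open triangles the rest; the tallest point in both lists, with 75 and 89 fragments, lies between P4ha2 and Csf2, and no point at a cytokine gene is above 21.

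The strength of a peak is given in 2 ways. Fold and −log10 q compare the summit with the peak caller's background within 1 library and were not scaled between libraries, so −log10 q is given with its percentile among all peaks of its own list. The number of fragments at the summit was solved from the fold and the −log10 p, assuming that no control library was used, with an exact Poisson 95% interval that covers counting error only. The smallest number in any listed peak was 9 in the control list and 8 in the asthmatic list. These were reached where the background was lowest, and more fragments were needed where it was higher. A start without a listed peak is therefore a start below the caller's limit, not one shown to lack H3K4me3.

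Among the type 2 cytokines, Il4 encodes the cytokine that directs class switching to IgE. Its peak in the control list, chr11:53616485-53616677, was 193 bp wide with a fold of 4.74, and its −log10 q was 5.63, above 24.5% of the list. It had 15 fragments at the summit (8.40 to 24.7). The peak lay inside the gene, 547 bp from the nearest annotated start at 53617224 and 1992 bp from the gene's 5′ end, in an intron of each annotated transcript. The nearest peak of the asthmatic list lay 49643 bp from any Il4 start.

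Il5 encodes the growth and survival factor of eosinophils. Its peak in the control list, chr11:53721697-53721889, was also 193 bp wide, with a fold of 4.46, a −log10 q of 5.19 above 17.9% of the list and 15 fragments (8.40 to 24.7). The nearest edge lay 903 bp downstream of the gene's only annotated start at 53720794, the summit lay in intron 1, and the peak reached into a coding exon. Offspring of asthmatic mothers had no peak nearer to the start than 13515 bp.

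Il13 encodes the cytokine that induces mucus production and airway hyperreactivity. No peak touched the gene in either list, and the nearest to its start at 53634702 was at a distance of 18025 bp (control list) and 55641 bp (asthmatic list). It lay in an empty stretch of 73.7 kb in the control list, from the Il4 peak to an intron of Rad50, which was longer than 71.02% of the gaps between neighbouring peaks of that list. The empty stretch of the asthmatic list was 123 kb, held Il4 as well, and was longer than 88.0% of the gaps of its list.

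The Il4 and Il5 peaks are shown because they were the only marks at a type 2 cytokine gene in either list. The capitals mark TGATAA, one of the letter strings searched for GATA factors. Neither peak overlaps an annotated UTR.
Il4 peak, chr11:53616485-53616677, minus strand: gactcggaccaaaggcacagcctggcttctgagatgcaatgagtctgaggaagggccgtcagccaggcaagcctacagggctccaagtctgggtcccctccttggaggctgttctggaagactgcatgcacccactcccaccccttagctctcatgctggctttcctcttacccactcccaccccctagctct
Il5 peak, chr11:53721697-53721889, plus strand: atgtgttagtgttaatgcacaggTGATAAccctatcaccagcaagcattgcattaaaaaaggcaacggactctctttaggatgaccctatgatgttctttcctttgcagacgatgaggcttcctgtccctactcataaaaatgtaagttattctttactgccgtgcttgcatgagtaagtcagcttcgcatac

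Both peaks were poor in CpG, with 2 in the Il4 peak and 4 in the Il5 peak. Both summits were single-copy, since the 75 bases around them occurred nowhere else on the 21 assembled chromosomes. The Il4 peak was 24.9% repeat-masked and the Il5 peak 0%.

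Csf2 and Il3 encode the haematopoietic growth factors GM-CSF and IL-3, which share a receptor chain with IL-5. Csf2 was the only cytokine gene with a start peak in both lists. In the control list the peak, chr11:54248123-54248874, was 752 bp wide with a −log10 q of 6.05, above 28.7% of the list, and 21 fragments (13.0 to 32.1). In the asthmatic list it spanned chr11:54248392-54248785 and was 394 bp wide with a −log10 q of 6.07, above 36.8% of the list, and 17 fragments (9.90 to 27.2). The fold over background was 4.08 in the control list and 4.75 in the asthmatic list. The intervals of the fragment numbers overlapped, and the summits lay 71 bp apart.

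The Csf2 peaks, too, lay inside the gene, with the nearest edge 793 and 882 bp from the GENCODE start at 54249667. The antisense gene Gm12223, with its start at 54247600, spans the same bases, so a mark of one cannot be told apart from a mark of the other. A second peak at chr11:54247831-54248039, with 17 fragments, lay 231 bp from the Gm12223 start in the control list alone. Il3 had no peak in or near it, the nearest being the Csf2 peak at 18403 bp in the control list and 18492 bp in the asthmatic list.

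**Figure D2:**
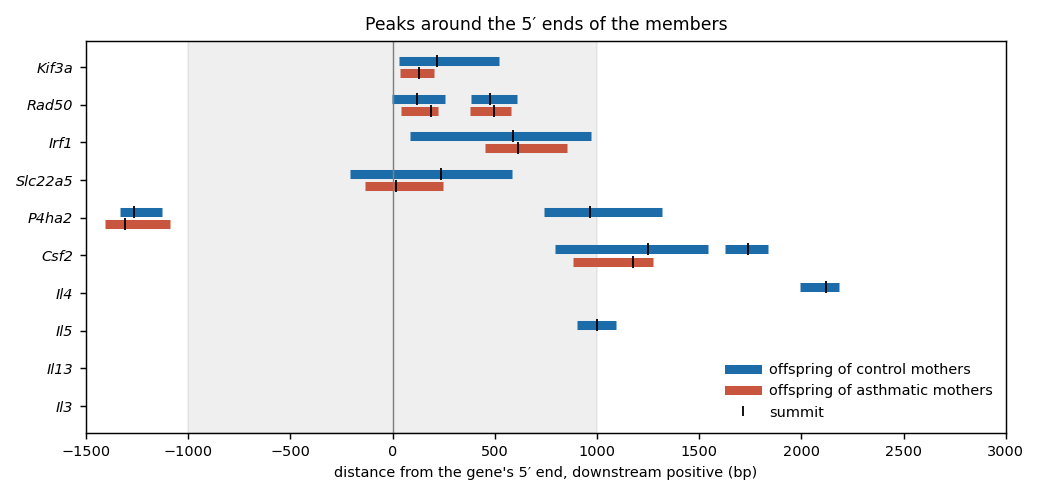
Listed peaks (bars) and summits (ticks) around the annotated 5′ end of each member, with distance in bp on the x axis, downstream positive, and the 2 lists in blue (control mothers) and red (asthmatic mothers). Shading marks 1000 bp on either side. In the control list the Il5, Csf2 and Il4 peaks begin 903, 793 and 1992 bp downstream of the 5′ end. The P4ha2 peak of that list begins 741 bp downstream, and the Irf1 peak 83 bp (control list) and 450 bp (asthmatic list). The nearest Kif3a, Rad50 and Slc22a5 peaks begin within 40 bp of the 5′ end or cover it.

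The position of the cytokine peaks was uncommon among start peaks. The Il4, Il5 and Csf2 peaks had their nearest edge more than 500 bp from every protein-coding start, and in the control list this held for 3.74% of the 12762 peaks at protein-coding starts. Among asthmatic-list start peaks it held for 5.00% of 10062, with Csf2 among them. Over all start peaks of offspring of control mothers the median summit lay 117 bp downstream of the nearest start. The Il5 summit lay 1000 bp downstream of the 5′ end and the Csf2 summit 1248 bp.

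Irf1, which encodes an interferon-responsive transcription factor, carried the strongest mark of any member in both lists by −log10 q. The peak in the control list, chr11:53770097-53770986, was 890 bp wide with a −log10 q of 19.1, above 93.8% of the list, and 39 fragments (27.7 to 53.3). In the asthmatic list it was 406 bp wide at chr11:53770464-53770869, with a −log10 q of 10.5, above 78.5% of the list, and 21 fragments (13.0 to 32.1). The narrower peak lay wholly within the wider one, the summits were 23 bp apart and the intervals overlapped. By fold the Kif3a peak stood higher, at 9.19 and 7.01 in the 2 lists against 7.07 and 6.59 for Irf1.

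Upstream of Irf1, close to the microRNA gene Mir7671, lay a group of single-copy peaks away from any protein-coding start, none of them repeat-masked. Offspring of control mothers had 3 of them, 190, 190 and 202 bp wide, with 14, 14 and 16 fragments. Offspring of asthmatic mothers had 1, at chr11:53763140-53763299, with 11 fragments (5.49 to 19.7), and its summit lay 8 bp from that of the first of the 3. The peak of offspring of asthmatic mothers is printed with the letters AGATAA in capitals, the other string searched for GATA factors. It is shown because no other peak shared between the lists away from protein-coding starts was free of masked bases.
Peak near Mir7671, chr11:53763140-53763299, minus strand: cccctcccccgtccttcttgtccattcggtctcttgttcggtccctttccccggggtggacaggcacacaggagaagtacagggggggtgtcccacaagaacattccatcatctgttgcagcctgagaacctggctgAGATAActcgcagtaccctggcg

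Rad50 encodes a subunit of the MRN complex, which senses DNA breaks. It had a pair of peaks at its start in both lists. In the control list they had 24 and 22 fragments, with −log10 q of 13.8 and 11.9, and in the asthmatic list 16 and 14 fragments, with −log10 q of 8.65 and 6.86. Each peak of the pair overlapped its counterpart, and all 4 peaks held at least 10.4 CpG per 100 bases. The stronger of the pair stood above 83.0% of the control list and 67.7% of the asthmatic list.

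The rest of Rad50 held no single-copy peak in either list. Its only other peak lay in intron 9, at chr11:53690427-53690832 with 15 fragments in the control list and at chr11:53690343-53690701 with 12 in the asthmatic list. Both were 100% repeat-masked, and the 75 bases around the summits occurred 7974 and 8902 more times in the genome. A read from such a repeat cannot be placed to 1 copy with certainty.

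Kif3a encodes a kinesin motor subunit needed to build cilia. Its start peak was 492 bp wide with a −log10 q of 17.2, above 91.0% of the list, and 26 fragments (17.0 to 38.1) in the control list. The asthmatic-list peak was 169 bp wide with a −log10 q of 9.59, above 74.9%, and 17 fragments (9.90 to 27.2). By width this was the largest contrast among the shared peaks, the wider being 2.91 times the narrower.

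Slc22a5 encodes the carnitine transporter OCTN2. Its start peak was 790 bp wide with a −log10 q of 9.44, above 63.1% of the list, and 19 fragments (11.4 to 29.7) in the control list. In the asthmatic list it was 379 bp wide with a −log10 q of 6.00, above 36.2%, and 13 fragments (6.92 to 22.2). Both peaks covered the annotated 5′ end.

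P4ha2 encodes a prolyl hydroxylase that modifies collagen. Its start peak in the control list, chr11:54100836-54101413, was 578 bp wide with a −log10 q of 8.92, above 60.4% of the list, and 22 fragments (13.8 to 33.3). The peak had 12.1 CpG per 100 bases, the highest density in the locus. In the asthmatic list the nearest peaks were a repeat-masked one 1090 bp upstream of the first P4ha2 start, just outside the 1000 bp limit, and another repeat-masked one inside the gene with 19 fragments at chr11:54104768-54105080. The upstream one overlapped a peak of the control list at 1129 bp from the start, while the one inside the gene had 618 further copies of its summit sequence.

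**Figure D3:**
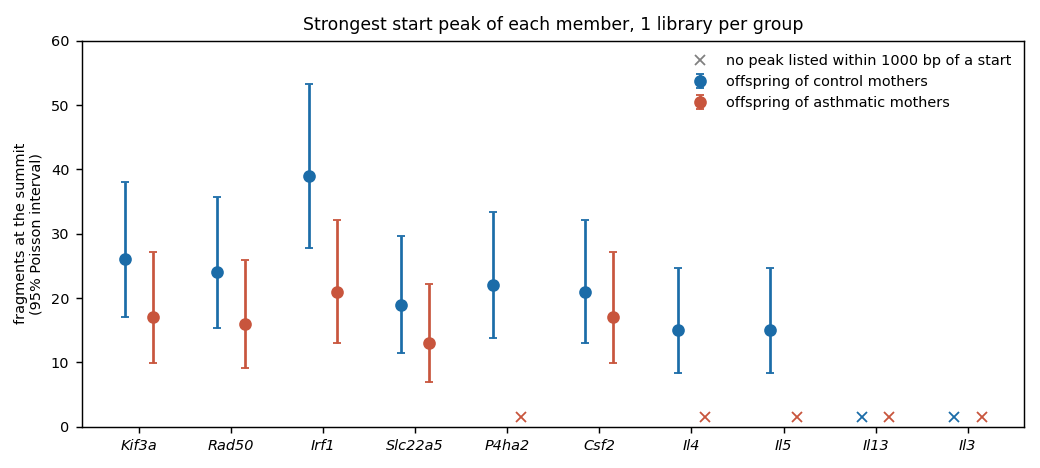
Fragments at the summit of the strongest start peak of each member (points, y axis) with exact Poisson 95% intervals (bars, counting error only), for 1 library of offspring of control mothers (blue) and 1 of asthmatic mothers (red), and crosses where no start peak was listed. In each of the 5 members marked in both lists the blue point is higher and the intervals overlap, and the lowest blue points are Il4 and Il5 with 15 fragments.

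Of the 15 protein-coding genes in the stretch, 10 had a start peak in the control list and 6 in the asthmatic list, beside 50.9% and 41.9% of all genes. Besides the members these were Gm12216, with 26 and 14 fragments, and the carnitine transporter gene Slc22a21, with 23 fragments (14.6 to 34.5) and a −log10 q of 14.5 in the control list alone. The Slc22a21 peak was the strongest of the locus without a counterpart in the other list, where the nearest peak lay 51361 bp away. Slc22a4, a further transporter gene, and Pdlim4, which encodes a LIM protein, had no start peak in either list and are named because of that, after their values were seen. Their promoter windows hold 29 and 31 CpG, and of the promoter windows with 21 CpG or more, 83.1% were marked in the control list and 71.4% in the asthmatic list.

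At the other end, cytokine promoters belonged to classes that were seldom marked. Of windows with up to 2 CpG, 2.38% and 2.05% were marked in offspring of control and of asthmatic mothers, and of windows with 3 to 5 CpG, 6.34% and 4.48%. In the class of 6 to 10 CpG, which holds Il3, the shares were 19.7% and 14.2%. In the control list the window of the inner Il4 start was one of 182 marked of 7656 in its class, and the Il5 window one of 422 marked of 6654. For Csf2 the RefSeq start lies farther from the peak than the GENCODE start, so its window did not count as marked in this comparison.

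**Figure D4:**
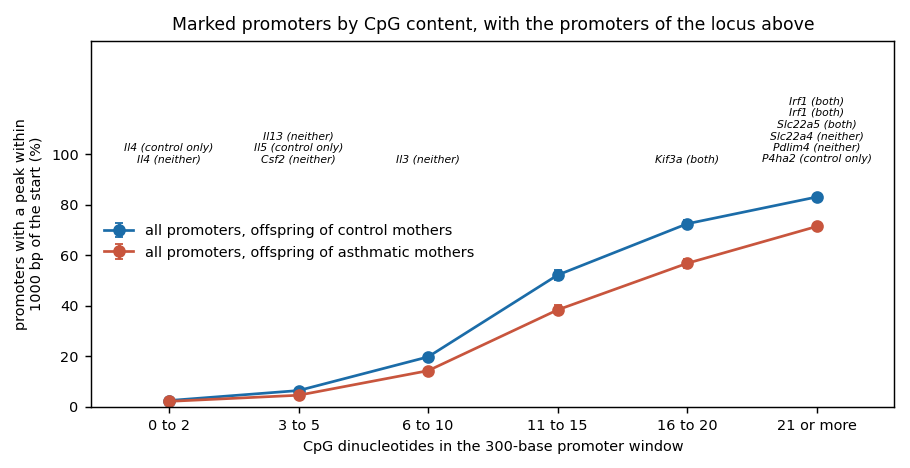
Share of RefSeq promoter windows with a peak within 1000 bp of their start (y axis, %, bars are exact Clopper-Pearson 95% intervals) by number of CpG dinucleotides in the window (x axis), in offspring of control mothers (blue) and asthmatic mothers (red). The windows of the locus are named above their class with the lists that mark them; the share rises from 2.38% to 83.1% in blue and from 2.05% to 71.4% in red, and of the named windows in the highest class Slc22a4 and Pdlim4 are marked in neither list.

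The letter strings searched on both strands of the promoter windows were AGATAA for GATA factors, TGATAA likewise, TGANTCA for AP-1, GGAAA for NFAT, TATAAA for the TATA-binding protein, CCAAT for NF-Y and GGGCGG for Sp1. Overlapping matches were all counted. AGATAA was found in the windows of Il13, Il3 and Csf2 and in those of none of the CpG-rich members, and it occurred in 11.2% of all windows. In Il13, read in the printed bases above, it began 81 bases before the start, and TATAAA, found in 13.6% of all windows, began 29 bases before it, overlapping a match on the other strand. Only Il13 of the members held the latter. The Sp1 string GGGCGG, found in 35.7% of all windows, occurred in every CpG-rich window of a member, once or more, and in those of Il3, Csf2 and the inner Il4 start among the cytokines. The string TGATAA was in 9.05% of all windows and in the outer Il4 window alone among the members. No member's window held TGANTCA, which was in 7.81% of all windows, while GGAAA was in 61.3% and CCAAT in 37.4%. A match describes the letters and does not show that a factor binds.

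The strongest peak of the locus in both lists lay at no annotated gene. At chr11:54140011-54140722, between P4ha2 and Csf2, it had a −log10 q of 44.2, above 99.6% of the list, and 75 fragments (59.0 to 94.0) in the control list. In the asthmatic list it spanned chr11:54140029-54140671 with a −log10 q of 65.8, above 99.8%, and 89 fragments (71.5 to 109.5). Its edge lay 12318 bp (control list) and 12336 bp (asthmatic list) from the nearest annotated start. It was 57.4% and 53.2% repeat-masked in the 2 lists, and held 2 CpG. Its summit sequence was single-copy. In this it was unlike every start peak of the locus, being strong and poor in CpG.

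Peaks shared between the lists made up 14 of 21 (66.7%) in the control list and 14 of 16 (87.5%) in the asthmatic list, beside 71.8% and 60.9% over the assembled chromosomes. In 13 of the 14 pairs the peak of offspring of control mothers was the wider, with medians of 411 and 282.5 bp, the exception being the repeat upstream of P4ha2. Over all shared pairs of the genome it was the wider in 63.4%, in 91.4% of those at protein-coding starts and in 51.6% of those away from them. In the locus it was the wider in all 7 pairs at such starts and in 85.7% of the 7 others. In 12 of the 14 pairs it had more fragments, the exceptions being the peak between P4ha2 and Csf2 and a repeat in Gm12216 with 13 and 15. The intervals overlapped in all 14 pairs.

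The same direction held across the genome at starts. Of 8936 shared peaks at protein-coding starts, 96.5% had more fragments in the control list, with a median ratio of asthmatic to control of 0.615. The 7 shared start peaks of the locus all did, with a median ratio of 0.654. Away from protein-coding starts 45.4% of 21223 shared peaks had more fragments in the control list, with a median ratio of 1, and in the locus 71.4% of 7 did, with a median ratio of 0.875. The lower fragment numbers at Irf1, Kif3a, Rad50, Slc22a5 and Csf2 in the asthmatic list thus stood beside lower numbers at nearly all shared starts of the genome. At Csf2 the fold and the −log10 q were not lower there.

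The share of start peaks found again in the other list varied with their strength. The start peaks of offspring of control mothers were ordered by −log10 q and cut into 10 parts of like size. In the strongest part 2.27% had no overlap with a peak of offspring of asthmatic mothers, and in the weakest 80.2%. Il4 and Il5 lay in that weakest part, P4ha2 in part 7, where 37.0% had none, and Slc22a21 in part 4, where 9.95% had none. Csf2 lay in part 9, where 34.2% were found again, and was among them.

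**Figure D5:**
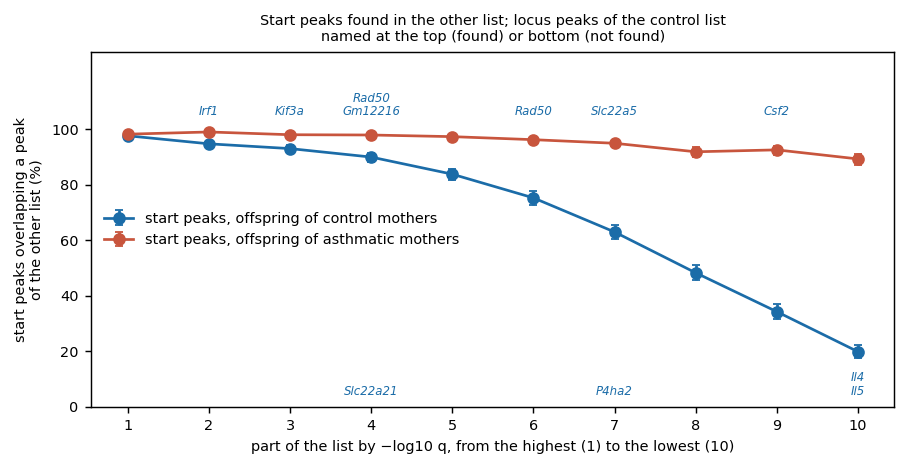
Share of start peaks that overlap a peak of the other list (y axis, %, bars are exact Clopper-Pearson 95% intervals) in each list cut into 10 parts by −log10 q, strongest first (x axis), for offspring of control mothers (blue) and of asthmatic mothers (red). Start peaks of the locus in the control list are named at the top where they were found again and at the bottom where they were not; the blue share falls from 97.7% to 19.8%, and Il4 and Il5 lie in part 10.

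Peaks were denser in the locus than on the chromosome around it. The density was 2.99 peaks per 100 kb (control list) and 2.28 (asthmatic list), beside 1.63 and 1.67 on all of chromosome 11. They covered 8886 bp (1.27% of the locus) and 5073 bp (0.723%), beside 0.692% and 0.515% of the chromosome. Of the 21 and 16 peaks, 11 and 7 lay at protein-coding starts, none of them with a repeat-masked share of 50% or more. Among the 10 and 9 peaks away from such starts, 5 and 7 were 100% masked. A masked share of 50% or more was found for 6 of the 10 and 8 of the 9. Over the assembled chromosomes it was found for 27363 of 29228 peaks away from such starts in the control list. In the asthmatic list it was found for 39814 of 41361. Masked peaks were thus not more common in the locus than elsewhere. A gene cluster of the same kind, the IL-1 receptor cluster on chromosome 1, held 6 and 7 peaks in 480 kb. Of its 6 genes Il1rl1 alone, which encodes the IL-33 receptor ST2, had a start peak. It had one in both lists, as did 41.2% of all genes.

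Start peaks were also counted over the other genes of the pathway. Of 40 receptors, kinases, STATs and transcription factors that act through or on the locus, 34 had a start peak in the control list and 28 in the asthmatic list, 27 of them in both, beside 50.9% and 41.9% of all genes. Of 9 receptor genes 4 and 3 were marked. Il4ra, the shared receptor chain for IL-4 and IL-13, had 32 and 19 fragments, while Il5ra and Il13ra1 had no start peak. Csf2rb, the shared chain for IL-3, IL-5 and GM-CSF, was the only pathway gene listed in the asthmatic list alone, a class of 0.722% of all genes. It had 13 fragments and a −log10 q of 6.00, above 36.2% of the list.

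All 7 signalling genes were marked in the control list and 6 in the asthmatic list, and of 24 factors known to act on the locus 23 and 19 were, beside 50.9% and 41.9% of all genes. Marked in the control list alone were 7 of the 40 pathway genes, namely the receptor genes Il2rg and Csf2ra, Jak3, Gata3, Jun, Irf4 and Bhlhe41. This class held 9.71% of all genes. The pathway genes were marked more often to begin with, and of the 34 marked in the control list 7 were in this class. Over all genes it held 2138 of the 11206 marked in the control list. Stat6, which relays the IL-4 signal, had 39 and 18 fragments, and Jak3, a kinase of the common gamma chain, had 18 in the control list. Gata3, the defining factor of type 2 lymphocytes, had 18 fragments and a −log10 q of 5.65 there, above 24.8% of the list. That value falls in part 9 of the control start peaks, where 65.8% had no overlap with a peak of the asthmatic list. Rora, needed for ILC2 development, had 43 and 31 fragments. Tbx21, the factor of type 1 lymphocytes, had no start peak in either list.

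The label of the cells was checked against marker genes. Of 15 ILC2 markers 13 had a start peak in the control list and 10 in the asthmatic list, beside 50.9% and 41.9% of all genes. Il1rl1, whose product ST2 is part of the gate, had 33 and 19 fragments, and Klrg1 and Icos had no start peak. Gata3, Il7r and Tcf7 were listed in the control list alone, a class of 9.71% of all genes. They were 3 of the 13 ILC2 markers with a start peak in that list, beside 2138 of 11206 genes. Among 8 T cell markers only Foxp3 was listed, in the asthmatic list with 12 fragments, and Cd3d, Cd3e and Cd3g had no peak. None of the 6 B cell, 7 macrophage, 6 neutrophil and 6 fibroblast markers was marked in either list.

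A few markers of other cells were listed, where 50.9% (control list) and 41.9% (asthmatic list) of all genes had a start peak. Among 8 epithelial markers Epcam, Cdh1 and Foxj1 had a start peak in the control list, with 24, 18 and 15 fragments, and Sftpb in the asthmatic list with 13. Eomes of the 6 NK and ILC1 markers and Kdr of the 5 endothelial markers were listed in the control list, with 12 and 11 fragments. Kit, of 8 markers of mast cells, basophils and eosinophils, was listed in both, and Cpa3, Mcpt8 and Epx in neither. T cells, mast cells, basophils and eosinophils can also use the type 2 cytokine genes. The study's gate for adult ILC2s was set to leave out cells that stained for CD3e, CD4, CD8A or CD11b, among other markers. How pure the sorted cells were was not tested here. The part of any remaining cells of these kinds in the peaks at Il4, Il5 and Csf2 was not tested.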

How the data were processed

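H3K4me3 CATCH-seq of lung ILC2s was analysed in 2 libraries, 1 of offspring of control mothers and 1 of offspring of asthmatic mothers. The authors trimmed paired reads with Trim Galore and Cutadapt, aligned them to GRCm38 (mm10) with Bowtie 2 and removed PCR duplicates. The protocol set aside some lysate to build input libraries. The study's methods name a peak caller for the ATAC-seq data only and state that none was run on the ChIP-seq data, yet peak lists were deposited for both libraries. The caller behind these lists, its threshold and whether input served as its control are thus not given in the sources used here. The deposited lists hold a score that equals the −log10 q times 10, rounded down. The authors' fold is a ratio of summit signal to the caller's background. The p-value and q-value of a summit against that background were deposited as −log10 values, and the smallest −log10 q was 2.02 and 2.01. The number of reads per library was not analysed here. The lowest solved background was 1.83 fragments in the control list and 1.57 in the asthmatic list. With the narrowest peak width, 190 and 156 bp, taken as the fragment length, this is 96.1 and 100.4 fragments per 10 kb. The median peak had 21 and 18 fragments.

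Starts, exons and UTRs came from GENCODE vM21. An overlap of 1 bp made peaks shared. Summit fragments were solved as whole numbers from fold and −log10 p under a Poisson model with 1 added to signal and background. The modelled −log10 p lay within 0.001 of the listed one for over 99% of peaks. The peaks' bases, masked share and copies of the 75 bases at the summit came from the reference, and promoter windows from RefSeq for GRCm38.p6, on 21 chromosomes. Rad50 has no window in that table. Overlaps, start calls and solved fragments were tested on simulated data. The members and gene lists were chosen with earlier results of these data known. Genes named are the members, genes between them with a start peak, the pathway and marker lists and the IL-1 receptor cluster, and outside this rule Slc22a4 and Pdlim4, chosen after their values were seen. Alternatives were distances of 500 and 2000 bp, the 5′ end alone, −log10 q of at least 5, the 10000 strongest peaks, overlap of 50% of both peaks, joined domains, members alone and unmasked peaks. Scripts ran in Python 3.11.15 with scipy 1.17.1, pandas 2.3.3, numpy 2.4.6 and matplotlib 3.10.9.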

Additional observations from a re-analysis of the deposited data

How the results depend on the processing

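With a distance of 500 bp the members with a start peak fell to 5 in offspring of control mothers, since Il4, Il5 and Csf2 were lost, and were 4 in offspring of asthmatic mothers, beside 49.95% and 40.6% of all genes. At 2000 bp P4ha2 was added in the latter, for 6, beside 43.7%. With the 10000 strongest peaks of each list, members marked were 3 and 0 and pathway genes 15 and 5, beside 32.2% and 9.32% of all genes, locus peaks 7 and 1, covered bases 3890 and 643, and shared peaks 14.3% and 100%, in offspring of control and of asthmatic mothers. The members' gene bodies and starts alone held 11 and 8 peaks over 4988 and 2404 bp. Without peaks that were 50% or more repeat-masked, offspring of asthmatic mothers kept 8 peaks over 2592 bp. The median percentile of the members' start peaks was 61.8 and 67.7 by −log10 q, 62.4 and 77.9 by fold, 32.3 and 66.0 by −log10 q among start peaks, and 68.6 and 64.2 by domain width. The cause of these shifts was not tested. A −log10 q of at least 5 left the members and pathway genes marked, the locus peaks, the covered bases and the shared share within 1.5 times their values. The 5′ end alone, run for the members and pathway genes, left both within 1.5 times and dropped Il4. No paired analysis was possible because each group had a lone library and no test was made, and no library could be left out. The listed peaks do not show marks below the caller's limit, which was 9 and 8 fragments at the lowest background and higher elsewhere.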
